A study of Mus musculus with 12 samples.

Results

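Tfe3 encodes a transcription factor on the mouse X chromosome, and its reads were followed allele by allele from fibroblasts through 3 courses of reprogramming. Its members here were the single-base variants covered by at least 20 reads whose row named Tfe3, which came to 34 of the 6478 such sites in the whole series, with 20 to 28 of them listed in any 1 library. The series held 12 libraries of poly(A) RNA, and for each the variants found on the X chromosome were tabulated. Mouse embryonic fibroblasts (MEF1 and MEF2) had no vector and no agent and stood for day 0. All 10 other libraries came from fibroblasts given the Sendai virus vector SeVdp(fKOSMaB). LowK had the vector and no agent and was sampled at days 35, 52 and 56. MidK1 had the vector with 30 nM Shield1, a small ligand that protects proteins carrying a destabilising domain from degradation, and was sampled at the same days. MidK2 had the vector with 30 nM Shield1 and was sampled at days 18, 22, 29 and 36. Each course and day had 1 library. Not given in the sources used here were the mouse strains, the parent from which each X chromosome came, and whether the fibroblasts of MEF1 and MEF2 were grown separately.

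TFE3 is a basic helix-loop-helix leucine zipper protein of the same family as MITF and TFEB. It binds E-box-like motifs near genes of lysosomes and autophagy. In cells with enough nutrients, Rag GTPases bring it to the lysosome, where mTORC1 phosphorylates it and it is held in the cytoplasm. In mouse embryonic stem cells nuclear TFE3 supports self-renewal, and its removal from the nucleus accompanies the exit from pluripotency. In female cells 1 X chromosome is silenced, and that chromosome is reactivated when cells are reprogrammed to the pluripotent state, so reads of the silent allele of an X-linked gene return.

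The measure was the reference share, the percentage of reads over a site that did not carry the variant allele. A position where all reads carry the reference base is not listed, so each listed site has some variant reads. Tfe3 lies at X:7762560-7775202 on the forward strand of build mm10, and the annotated transcript has 10 exons and 3277 bases. All 34 sites were exonic, 13 in coding sequence and 21 in the 3' UTR, and none named a 2nd gene. Of these, 20 sites were listed in all 12 libraries, 4 in coding sequence and 16 in the 3' UTR, spread over 1473 bases from 7773529 to 7775001. These common sites are the main ruler below, because they are the same positions in every library. A 2nd group of 8 sites, 3 coding and 5 in the 3' UTR, stood apart from the rest. Their variant share was 25% or less in every library that listed them, a grouping made after the values were seen.

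The 21-base windows below, read from the GENCODE M21 transcript on the forward strand of mm10, show 4 common sites and 2 sites of the apart-standing group, because the results turn on the contrast between the groups. The capital is the reference base at the site, and each name gives the reference base, the mm10 position on chromosome X and the variant base. The first is in the last coding exon, and the others are in the 3' UTR.
A7773529G, X:7773519-7773539: atggtctgccAgtccctccca
C7774436T, X:7774426-7774446: tccagcccgtCcccctgggac
T7774903C, X:7774893-7774913: aggcagggccTgggaggaatg
G7774938C, X:7774928-7774948: atgtatccgtGttttgtttgt
T7773973C, X:7773963-7773983: ctgcctttttTccctaccctc
T7774343A, X:7774333-7774353: aaaaaataagTgtcccacccc
T7773973C and T7774343A sit in the apart-standing group. The capital of T7773973C ends a run of T, and a 1-base C insertion directly after it was listed in all 12 libraries. T7774343A follows a stretch rich in A, and an AG insertion 3 bases upstream was listed in all 12 libraries as well. Of the 8 apart-standing sites, 4 lay within 10 bases of a listed insertion or deletion, against 0 of the other 26 sites, and 6 of the 8 were listed in 1 library alone.

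Fibroblasts read Tfe3 almost wholly from the variant allele. Over the common sites the reference share was 2.53% in MEF1 (95% Wilson interval 1.51 to 4.2%, 554 reads) and 0.556% in MEF2 (0.238 to 1.29%, 900 reads). Site by site it ran from 0 to 9.09% in MEF1 and from 0 to 3.03% in MEF2, with 9 and 15 of the 20 sites at 0. At G7774938C, for example, 0 of 28 reads in MEF1 carried the reference base, which allows up to 10.7%, and 0 of 74 in MEF2, which allows up to 4.05%. Reads have no molecular identifiers and several sites can lie on 1 read, so the same fragment can count at several sites. Intervals, limits and the tests between libraries treat all counts as independent. Over summed sites the intervals can therefore be too narrow and the p-values too small. None of them covers the spread between cultures. Over the 22 sites shared by both libraries MEF2 was 1.84 points below MEF1 (MEF2 minus MEF1, Newcombe interval -3.43 to -0.63 points, adjusted p = 0.0121 by Fisher's exact test). With sites at least 200 bases apart it was -0.94 points (exact test, adjusted p = 0.764), and at the 1 site with most reads -2.63 points (adjusted p = 1).

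Every comparison of 2 libraries used reads summed over the sites listed in both, with Fisher's exact test for each gene of the pair and Benjamini-Hochberg adjustment over those genes. Genes were called where the adjusted p was below 0.05 and the shares lay 20 points or more apart. Between MEF1 and MEF2, 0% of 191 genes were called.

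With the apart-standing sites added, the picture in fibroblasts changed for MEF2. Its share over all 25 listed sites was 10.6% (8.86 to 12.5%), and 109 of its 115 Tfe3 reference reads came from 3 of those sites. T7774343A alone gave a reference share of 77.8% of 36 reads. These sites also held 48.6% of the Tfe3 reference reads of LowK day 52 and 55.7, 28.5, 28.1 and 18.1% of those of MidK2 at days 18, 22, 29 and 36. MEF1, LowK days 35 and 56 and MidK1 listed none of them. Their reference shares were 77.8 to 94.9% wherever they were listed, in fibroblasts and in reprogrammed cells alike. The tables of MEF1, LowK and MidK1 begin at 5 variant reads and 10% variant, and those of MEF2 and MidK2 at 2 reads and 5%. The part of these limits in which sites were listed was not tested.

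**Figure D1:**
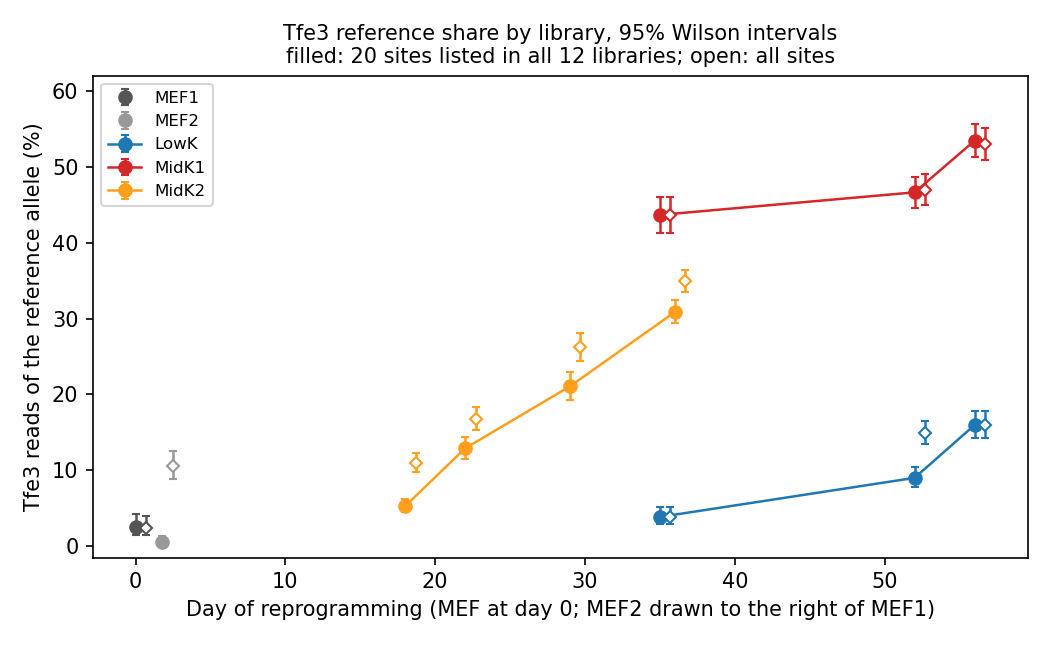
Tfe3 reference share (percent of reads, vertical axis) against the day of sampling, coloured by course, with 95% Wilson intervals, filled for the 20 sites listed in all 12 libraries and open for all listed sites. Of the filled points, LowK stays between 3.86 and 16.0%, MidK1 lies between 43.7 and 53.4%, and MidK2 climbs from 5.29 to 30.9%.

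Without Shield1 the reference allele of Tfe3 took a small share of reads. In LowK it was 3.86% on day 35 (2.89 to 5.12%), 9.01% on day 52 (7.76 to 10.4%) and 16.0% on day 56 (14.2 to 17.9%) over the common sites. The interval of day 35 overlapped that of MEF1, while those of days 52 and 56 lay above it. The difference from MEF1 over shared sites was 1.30 points on day 35 (interval -0.59 to 2.91, adjusted p = 0.405, Fisher's exact test), 6.18 points on day 52 (4.22 to 7.83, adjusted p = 3.91e-07) and 13.4 points on day 56 (11.0 to 15.5, adjusted p = 1.64e-19). The share was higher than in MEF1 at 14 of 21, 20 of 22 and 21 of 21 sites. At the 1 site with most reads the differences were 0.46, 4.49 and 12.5 points (exact test, adjusted p = 1, 1 and 0.342). Over all listed sites day 52 stood 12.5 points above MEF1. None of these reached 20 points, so Tfe3 was not called in LowK, where 1.11, 1.6 and 5.08% of genes were.

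Within LowK the share over shared sites rose at each step, but the size of each step depended on the sites summed. From day 35 to 52 it rose by 4.88 points (3.14 to 6.56, adjusted p = 3.98e-06, Fisher's exact test) and from day 52 to 56 by 7.30 points (5.13 to 9.51, adjusted p = 5.91e-09). From day 35 to 56 the rise was 12.1 points (9.93 to 14.2, exact test, adjusted p = 9.08e-25), at 20 of 21 sites. Over all listed sites, where the apart-standing sites enter day 52 alone, the steps were 11.1 points (adjusted p = 5.93e-24, exact test) and 1.02 points (adjusted p = 0.714). With sites at least 200 bases apart the first step was 3.60 points (exact test, adjusted p = 0.249). At the 1 site with most reads the steps were 2.60 points (adjusted p = 1, exact test) and 11.9 points (adjusted p = 0.049). The median gene moved by 0.48, 1.07 and 1.75 points in the same pairs. No step reached 20 points. In these pairs 1.12, 1.44 and 2.58% of genes were called.

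With Shield1, MidK1 read both Tfe3 alleles at close to equal shares from its first sampled day. In bulk libraries, cells reading both alleles cannot be told apart from a mixture of cells that each read a single allele. The reference share was 43.7% on day 35 (41.3 to 46.0%), 46.6% on day 52 (44.6 to 48.7%) and 53.4% on day 56 (51.3 to 55.6%) over the common sites. All 20 common sites exceeded the highest fibroblast site (9.09%) at each of the 3 days. The lowest was 29.8% (G7774096A at day 35) and the highest 61.5% (A7774232G at day 56). Over shared sites MidK1 exceeded MEF1 by 41.1 points on day 35 (38.3 to 43.7, adjusted p = 6.31e-90, Fisher's exact test), by 44.4 points on day 52 (41.8 to 46.7, adjusted p = 1.75e-115) and by 50.9 points on day 56 (48.2 to 53.2, adjusted p = 5.48e-139). Tfe3 was called at each day, at 20 of 20, 22 of 22 and 22 of 22 sites. In the same pairs 9.64, 13 and 14.6% of genes were called, and Tfe3 ranked 11th of 166, 9th of 169 and 8th of 171 genes by the size of the rise.

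The MidK1 share moved less between its own days. From day 35 to 52 the difference was 2.98 points (-0.18 to 6.11, adjusted p = 0.249, Fisher's exact test). It turned to -1.65 points when only sites at least 200 bases apart were summed. From day 52 to 56 the share rose by 6.04 points (3.13 to 8.93, exact test, adjusted p = 0.000538). From day 35 to 56 it rose by 9.78 points (6.55 to 13.0, exact test, adjusted p = 5.35e-08), at 19 of 20 sites. With sites at least 200 bases apart the step from day 52 to 56 was 6.53 points (exact test, adjusted p = 0.107). At the 1 site with most reads that step was 18.8 points (exact test, adjusted p = 0.0124), and days 35 to 56 gave 8.63 points (adjusted p = 0.298). The median gene moved by 0.23, 2.33 and 2.85 points. None of the 3 was called for Tfe3, against 2.35, 1.55 and 3.08% of genes.

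At matched days the difference between MidK1 and LowK was large. It was 39.8 points on day 35 (37.1 to 42.4, adjusted p = 1.83e-142, Fisher's exact test), with 20 of 20 shared sites higher in MidK1. At day 52 it was 38.5 points (36.2 to 40.8, exact test, adjusted p = 1.04e-187), with 25 of 25 sites higher. At day 56 it was 37.4 points (34.6 to 40.1, exact test, adjusted p = 6.35e-126), with 22 of 22 sites higher. The intervals of the 3 differences overlap, while both courses rose. The called share of genes was 8.46, 9.02 and 8.75%, and Tfe3 ranked 8th of 260, 8th of 266 and 7th of 263 genes. Over the 3 days as units, and all listed sites, the mean share was 47.9% ± 4.76 (SD, n = 3 days) in MidK1 and 11.6% ± 6.70 (SD, n = 3 days) in LowK, with no overlap (difference 36.3 points). The exact two-sided permutation p was 0.1, which is the smallest that 20 splits allow. Among these libraries the apart-standing sites entered LowK day 52 alone. Over the common sites the difference was 38.3 points, also with an exact permutation p of 0.1. Days of 1 course are not separate cultures, so this test does not measure the spread between cultures.

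The same order held at single sites. At the coding site A7773529G the reference share was 3.70, 2.60 and 8.11% in LowK at days 35, 52 and 56 (27, 77 and 37 reads) and 40, 45.8 and 55.2% in MidK1 (20, 48 and 29 reads). At the 3' UTR site G7774938C it was 1.89, 4.49 and 16.4% in LowK (106, 156 and 140 reads) and 46.8, 36.7 and 55.5% in MidK1 (237, 210 and 238 reads). At C7774436T, between them on the transcript, it was 3.85, 13.1 and 17.9% in LowK and 46.3, 60 and 53.8% in MidK1. At each of these sites every MidK1 value lay above every LowK value. The day 52 library of MidK1 had the highest value at C7774436T and the lowest at G7774938C among the 20 common sites.

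**Figure D2:**
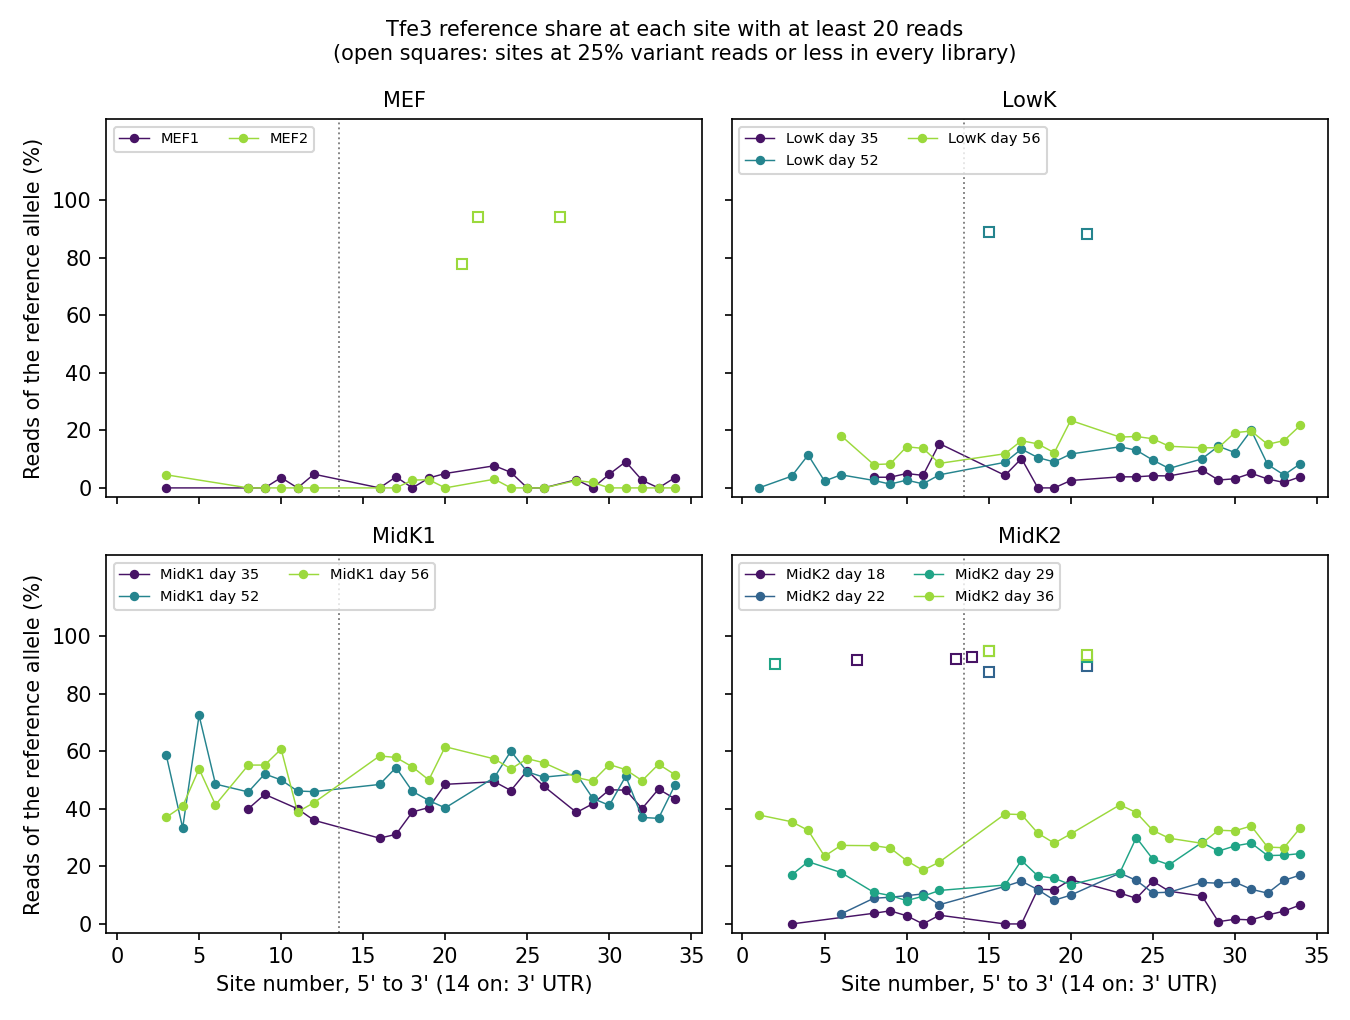
Reference share (percent of reads, vertical axis) at each Tfe3 site with at least 20 reads, numbered 5' to 3' (horizontal axis, dotted line at the start of the 3' UTR), 1 panel per group and 1 colour per library. Filled points form 1 band per library, while the open squares, the 8 sites at 25% variant or less, lie at 77.8 to 94.9%.

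MidK2, sampled earlier, showed the share climbing stepwise. Over the common sites it was 5.29% on day 18 (4.45 to 6.27%), 12.9% on day 22 (11.5 to 14.4%), 21.1% on day 29 (19.3 to 23.0%) and 30.9% on day 36 (29.4 to 32.4%). No 2 of these intervals overlap, and all lie above that of MEF2. The number of common sites above the highest fibroblast site was 7 at day 18, 17 at day 22 and all 20 at days 29 and 36. At G7774938C the values in order of day were 4.45, 15.1, 23.9 and 26.5%. At A7773529G they were 3.70, 8.93, 11.0 and 27.2%.

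Each step of MidK2 passed the test over shared sites, which in these pairs include apart-standing sites such as T7774343A. Over the common sites the steps were 7.61, 8.18 and 9.79 points. From day 18 to 22 the share over shared sites rose by 7.81 points (5.99 to 9.65, adjusted p = 9.66e-16, Fisher's exact test), from day 22 to 29 by 8.76 points (6.35 to 11.2, adjusted p = 6.89e-11) and from day 29 to 36 by 9.71 points (7.35 to 12.03, adjusted p = 4.30e-14). The sites that rose were 16 of 22, 22 of 24 and 25 of 26. At the 1 site with most reads the steps from day 22 to 29 and from day 29 to 36 were 13.0 and 2.60 points (exact test, adjusted p = 0.0564 and 0.969). In the last step the median gene fell by 2.34 points, and Tfe3 ranked 11th of 318 genes. From day 18 to 36 Tfe3 rose by 26.1 points (24.2 to 27.9, exact test, adjusted p = 5.41e-140) at 23 of 23 sites and was called. The called share of genes was 2.55, 0.974 and 1.26% for the steps and 4.98% for the whole span.

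Against MEF2 the differences over shared sites were 4.18 points on day 18 (2.55 to 5.64, adjusted p = 1.50e-05, Fisher's exact test), 12.1 points on day 22 (10.1 to 13.9, adjusted p = 4.49e-26), 20.05 points on day 29 (17.8 to 22.2, adjusted p = 2.97e-52) and 30.3 points on day 36 (28.3 to 32.0, adjusted p = 1.43e-105). These shared sites include the apart-standing site T7774343A. Over the common sites the differences in order of day were 4.73, 12.3, 20.5 and 30.3 points. Over all listed sites days 18 and 22 stood 0.41 and 6.23 points above MEF2 (exact test, adjusted p = 0.877 and 2.43e-06). At the 1 site with most reads day 18 stood 4.45 points above it (exact test, adjusted p = 0.487). Tfe3 was called at days 29 and 36. The shares of genes called were 1.94, 9.85, 10.6 and 10.6%. The call at day 29 rested on the 20-point limit and was lost at 19.9 points without the apart-standing sites and at 15.7 points over all listed sites. The median gene moved by 1.77, 7.95, 5.79 and 0.60 points, so Tfe3 ranked 55th of 206, 61st of 203, 22nd of 198 and 11th of 208 genes.

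The nearest days of the 2 courses with Shield1 gave different shares. MidK2 at day 36 was 12.8 points below MidK1 at day 35 over the 20 common sites (MidK2 minus MidK1, interval -15.6 to -10.0, adjusted p = 1.19e-17, Fisher's exact test), with 2 of 20 sites higher in MidK2. It was not called, against 3.02% of genes. The tables of the courses had the different starting limits given above, and the days differ by 1, so course, limit and day cannot be told apart.

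**Figure D3:**
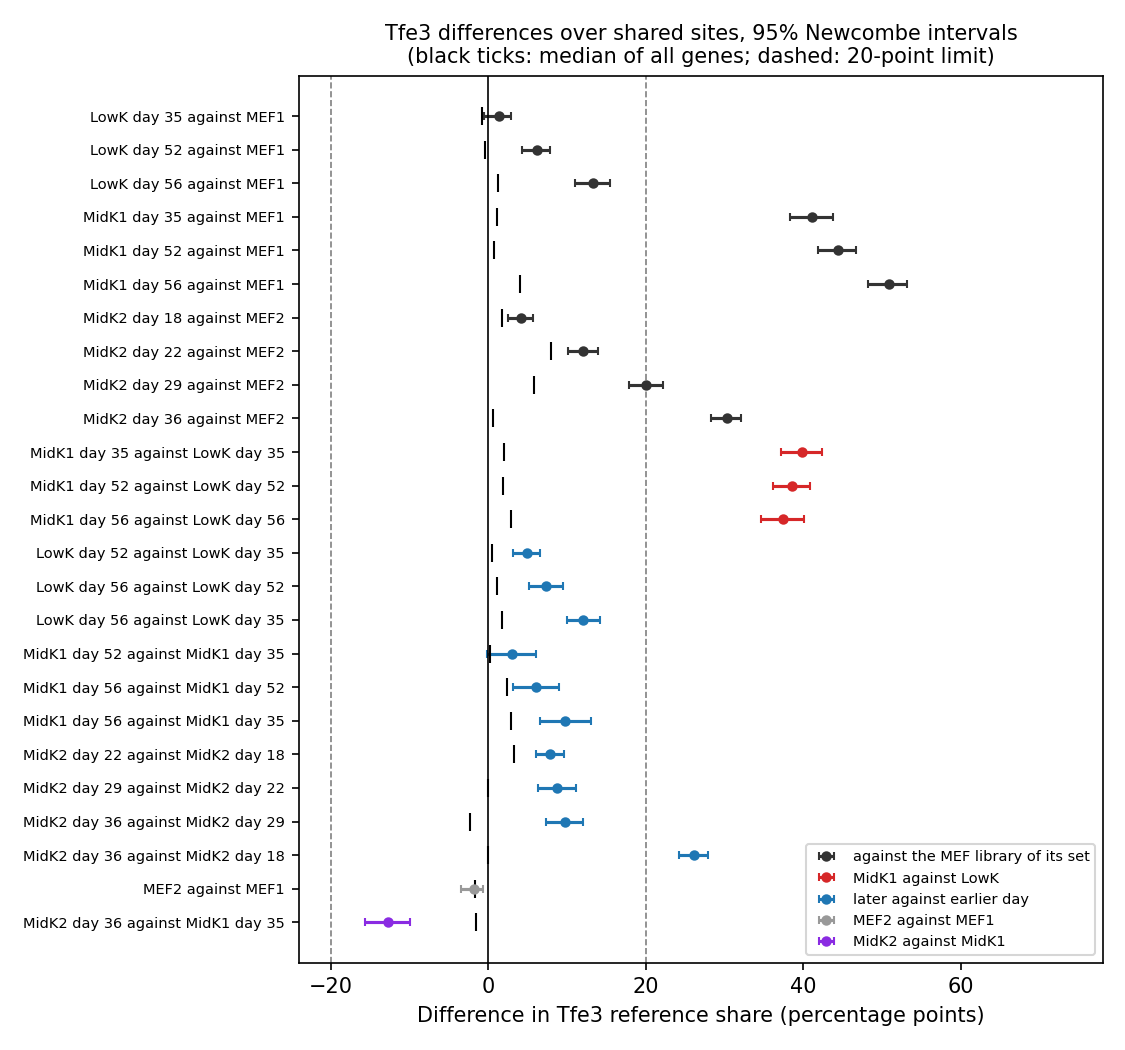
Tfe3 difference in reference share (percentage points, horizontal axis) for each of the 25 pairs of libraries over their shared sites, with 95% Newcombe intervals, the median of all genes as a black tick and dashed lines at the 20-point limit. The 3 MidK1 against LowK pairs lie between 37.4 and 39.8 points, and the MidK2 day 36 against MidK1 day 35 pair lies at -12.8.

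Over all 12 libraries and all listed sites, the reprogrammed libraries had a mean share of 26.7% ± 16.9 (SD, n = 10) and the MEF libraries 6.50% ± 5.72 (SD, n = 2). The difference of 20.2 points had an exact two-sided permutation p of 0.106, where 66 splits allow 0.0152. Over the common sites it was 22.7 points with an exact permutation p of 0.0758. The LowK day 35 and MEF values overlap over all listed sites. MEF2 stood at 10.6% over all listed sites and at 0.62% without the apart-standing sites, while MEF1 stood at 2.46% in both. The 10 reprogrammed libraries are serial days of LowK, MidK1 and MidK2, with and without Shield1, and not separate cultures. The permutation treats them as exchangeable, so its p-values do not measure the spread between cultures. Within the MEF1 set of tables the difference was 27.3 points and within the MEF2 set 11.7 points, with exact permutation p-values of 0.286 and 0.4. These sets hold 7 and 5 libraries with a single MEF library in each, so neither p could fall below 0.05.

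Along the transcript the share was not even. The coding sites of exon 10 (7773529 to 7773640) lay below the nearer 3' UTR sites (7774096 to 7774563) in 11 of 12 libraries, with LowK day 35 as the exception. Their intervals were apart in 4 libraries. These were LowK day 52 (2.47 against 10.6%) and MidK2 on day 18 (3.06 against 9.57%), day 29 (9.94 against 20.4%) and day 36 (23.0 against 33.5%). Between these nearer and the farther 3' UTR sites (7774693 to 7775001), intervals were apart in 2 libraries, MidK1 day 52 (50.9 against 42.0%) and MidK2 day 18 (9.57 against 3.67%). Upstream coding exons had few reads. In MidK2 day 36 exon 2 gave 37.8% of 37 reads, exon 3 gave 33.8% of 71, exon 4 gave 23.5% of 51 and exon 6 gave 27.3% of 66. All 10 coding sites outside the apart-standing group fell on the last base of a codon. The 3 coding sites within that group fell on the first or the middle base.

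Tfe3 coverage relative to other X-linked sites was higher after reprogramming. Over the 699 sites of all genes listed in all 12 libraries, the common Tfe3 sites took 8.44 of every 1000 reads in MEF1 and 9.10 in MEF2. LowK had 15.4, 20.8 and 19.5 at days 35, 52 and 56, MidK1 had 21.4, 28.0 and 26.0, and MidK2 had 24.5, 20.5, 19.3 and 30.4 at days 18 to 36. Every reprogrammed library was above both MEF libraries. The reads of the variant allele alone were 8.23 and 9.05 per 1000 in MEF1 and MEF2 and 12.04 to 23.2 in reprogrammed libraries, with no test run. These values are shares of reads over X-linked sites, not levels per cell, and fewer cells of a type and less RNA per cell cannot be told apart in bulk samples.

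Reads of fibroblast markers moved the other way between MEF and reprogrammed libraries. Within the courses they did not run opposite to the Tfe3 reads per 1000 at every step. The 10 fibroblast markers (among them Bgn, a matrix proteoglycan, and Timp1, an inhibitor of matrix metalloproteinases) took 250 to 278 of every 1000 reads over all sites in MEF and 12.9 to 29.8 in reprogrammed libraries. MEF libraries listed 7 to 9 of these markers and reprogrammed libraries 4 to 6. Gpc3 went against the rest, being listed in no MEF library and in every reprogrammed library. The fibroblast list has 15 genes, these 10 markers with Msn, Flna, Tmsb4x, Plp2 and Lamp2. With that list left out (641 sites), the variant allele of Tfe3 took 11.6 and 13.0 per 1000 in MEF1 and MEF2. In MidK1 it took 12.8, 16.0 and 12.9, so MidK1 at days 35 and 56 then overlapped MEF. LowK stayed above MEF at 15.7, 20.2 and 17.4, and MidK2 at 25.1, 19.3, 16.6 and 22.6. The reference allele took 0.30 and 0.07 per 1000 in MEF against 9.92 to 14.8 in MidK1 on that scale. Of the 4 pluripotent markers, MEF listed 0, and reprogrammed libraries listed 1 to 3 at 0.152 to 4.15 per 1000 reads. Nr0b1 was listed in no library. LowK day 35 had the lowest of these values and the lowest reprogrammed Tfe3 share, but the order differed in other libraries. MidK1 day 35 had 0.878 marker reads per 1000 with a Tfe3 share of 43.7% over the common sites. MidK2 day 36 had 4.15 with a share of 30.9%. The part of cell make-up in the Tfe3 share was not tested.

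**Figure D4:**
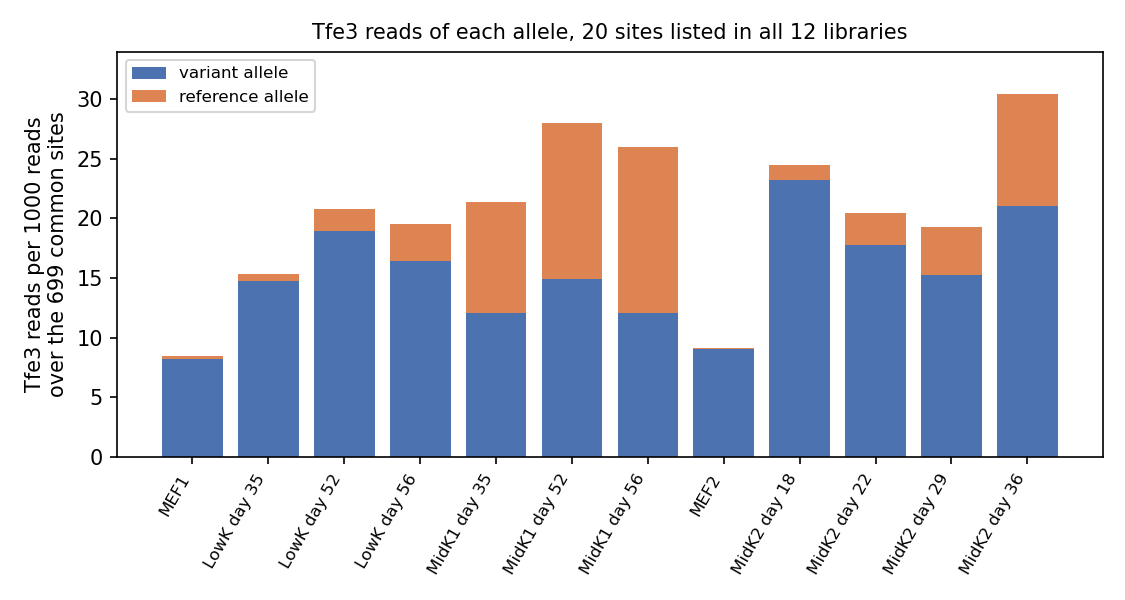
Reads over the 20 common Tfe3 sites per 1000 reads over all 699 sites listed in all 12 libraries (vertical axis), split into variant and reference allele, for each library. The variant part is 8.23 and 9.05 in MEF and 12.04 to 23.2 in reprogrammed libraries.

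Among 119 genes with at least 2 sites and 50 reads in every library, the 5 whose reference share ran most like that of Tfe3 over the 12 libraries were Wdr13, Gpkow, Praf2, Uba1 and Gm45208. Pearson's r was 0.97, 0.94, 0.93, 0.93 and 0.92, and the mean absolute difference from Tfe3 was 3.76, 4.57, 4.84, 7.37 and 7.34 points. The median r over these genes was 0.138. The points are 12 libraries of 3 courses that share the fibroblast source, so r is a description only. Wdr13 (a WD-repeat protein), Gpkow (a G-patch protein) and Praf2 (a membrane protein) start 361, 65.4 and 34.1 kb from Tfe3. Uba1, the main ubiquitin-activating enzyme, starts 12896 kb away. Gm45208 shares sites with overlapping genes, so its value is uncertain. Its annotated span overlaps that of Praf2, so Gm45208 and Praf2 may not be separate measurements.

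Wdr13 had the smallest mean difference from Tfe3 of the 5. Its share in order of day was 2.03, 9.51 and 22.4% in LowK, 47.2, 47.2 and 53.4% in MidK1 and 1.45, 15.6, 34.2 and 32.4% in MidK2. It did not climb in the last MidK2 step, where Tfe3 did. Praf2 in MidK1 began lower, at 28.0% on day 35, and reached 51.4 and 53.7%. Uba1 was lower than Tfe3 in MidK1 on day 35 (21.8%) and in MidK2 on day 36 (22.5%).

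**Figure D5:**
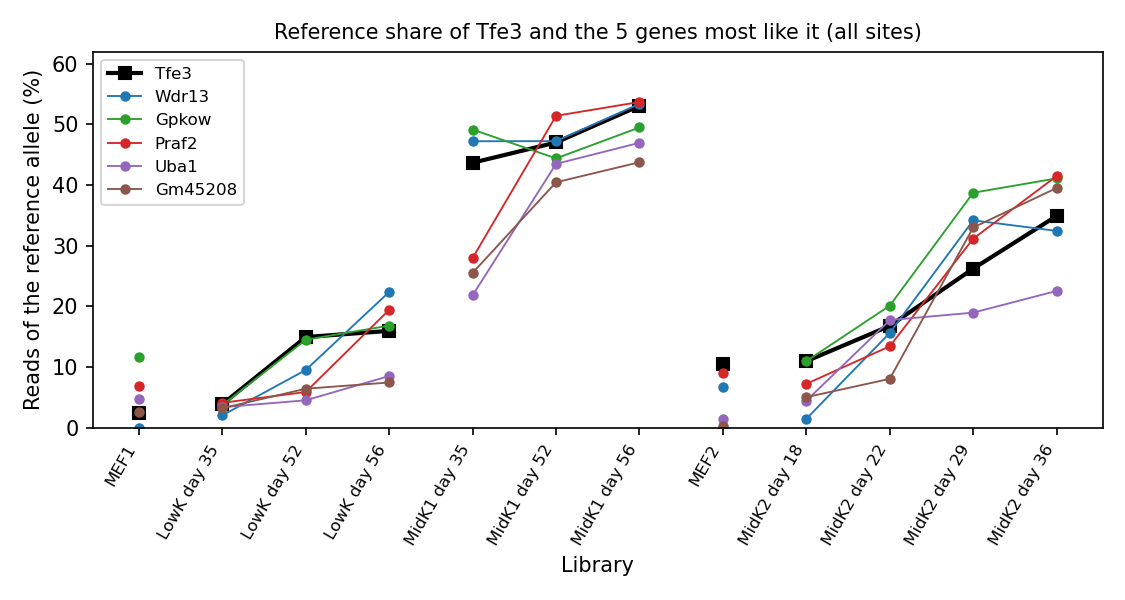
Reference share over all listed sites (percent, vertical axis) of Tfe3 (black squares) and the 5 genes most like it in each of the 12 libraries, joined within a course. All 6 genes are highest in MidK1, at 43.8 to 53.7% on day 56.

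The chromosomal surroundings of Tfe3 changed in part. Of the genes starting within 500 kb, 2 of 14 were called higher in LowK day 56 against MEF1 (Hdac6, a cytoplasmic deacetylase, and Wdr13), where the background of all genes was 5.08%. In MidK1 day 56 it was 10 of 15 against 14.6%, with a median of 36.4 points against 4.02 for all genes. In MidK2 day 36 it was 8 of 17 against 10.6%, with a median of 19.9 points against 0.60. No neighbour was called lower in these 3 pairs. Between MidK1 and LowK at day 56, 7 of 19 were called higher, against 8.75% of all genes, and the median was 16.7 points against 2.90 for all genes. Several neighbours overlap or share sites, so they are not separate measurements.

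X-linked genes of lysosomes, autophagy and the Rag GTPases, the setting in which TFE3 acts, formed the next list. Its Rag gene, Rragb, was not measured in any pair given here, so the counts hold no Rag GTPase. In LowK day 56 against MEF1, 1 of 7 measured genes was called (background 5.08%), Fundc1, a receptor for mitophagy, at 28.7% against 4.35%. In MidK1 day 56, 5 of 7 were called higher (background 14.6%), with a median of 27.2 points against 4.02 for all genes. They were Fundc1 (63.4 against 4.35%), Wdr45, an autophagy protein (46.8 against 0.70%), Lamp2, a lysosomal membrane protein (43.4 against 16.1%), Atp6ap2, a proton pump accessory subunit (35.3 against 4.61%), and Clcn5, an endosomal chloride transporter (23.7 against 1.89%). Atp6ap1, the other accessory subunit, was at 21.2 against 16.8% and was not called. In MidK2 day 36 against MEF2, 2 of 8 were called higher (background 10.6%), Fundc1 (36.6 against 0%) and Wdr45 (29.9 against 0%). The Fundc1 values came from 3 shared sites with 74 reads in MEF2. Over all listed sites Fundc1 stood at 45.1% in MidK2 day 36 and 44.7% in MEF2, so its rise held over the shared sites only. Wdr45 is also a neighbour of Tfe3.

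Genes linked to the pluripotent state mostly had no site listed with at least 20 reads in both libraries of a pair with fibroblasts. Only Ogt, the O-GlcNAc transferase, was measured against MEF1, at 8.70% in LowK day 56 and 7.97% in MidK1 day 56 against 11.0 and 6.22%, and it was not called. In MidK2 day 36 against MEF2, 1 of 2 was called (background 10.6%), Bcor, a corepressor, at 35.9 against 0%. Between MidK1 and LowK at day 56, 2 of 6 were called (background 8.75%), Klhl13, a ubiquitin ligase adaptor (54.4 against 4.17%), and Bcor (54.5 against 14.1%). Zfx, a zinc finger factor, was at 3.38 against 3.94%.

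Of the fibroblast list, 1 of 9 measured genes was called higher in LowK day 56 against MEF1, 4 of 8 in MidK1 day 56 and 4 of 10 in MidK2 day 36 against MEF2. The shares of all genes called were 5.08, 14.6 and 10.6%. Timp1 was called in LowK at 44.1 against 2.93%. In MidK1 the called genes were Plp2, a membrane protein and neighbour of Tfe3 (87.5 against 14.3% from 1 site), Bgn (80.6 against 3.64%), Timp1 (47.8 against 3.32%) and Lamp2, also on the lysosome list. In MidK2 they were Bgn (80.4 against 1.21%), Plp2 (65.7 against 2.78% from 1 site), Tmsb4x, an actin-binding thymosin (28.5 against 0.62%), and Timp1 (21.5 against 0.98%). Bgn and Plp2 had higher reference shares than Tfe3 in both of these libraries.

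The libraries held 1507 to 3871 single-base sites with at least 20 reads, 138579 to 279031 reads over them and 213 to 372 named genes. At single common Tfe3 sites the depth was 20 to 38 reads in MEF1 and 91 to 390 in MidK2 day 36, so single-site values in MEF1 are the least precise.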

How the data were processed

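Poly(A) RNA was sequenced in pairs of 76 bases. Per the series description, the authors called variants in CLC-Genomic Workbench (Basic Variant Call), with mm10 as the build named in the submitters' processing notes. The aligner and settings: not given in the sources used here. The deposited tables give, per the file headers, a count of variant reads and a coverage count for each position, neither normalized. The deposited percent of variant reads was used only as a check. The average base quality score, per the file headers in 7 tables, served as a filter in an alternative. Single-base sites with at least 20 reads were kept. Shares have 95% Wilson intervals and differences Newcombe intervals. Pairs were compared by two-sided Fisher's exact test per gene with Benjamini-Hochberg adjustment (SciPy 1.17.1), and group means by exact permutation. The pair comparison was also run on simulated counts drawn independently at each site. That run does not cover fragments shared between sites or the spread between cultures. Sites and windows were placed with GENCODE M21. The rule for named genes took the 5 most correlated genes and the list members called in the last library of a course. Alternatives covered coverage, site choice, base quality and left-out libraries. The gene and the lists were chosen with earlier results of these data known.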

Additional observations from a re-analysis of the deposited data

Results flagged for a closer look

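Tfe3 differed between the courses with and without Shield1 at each matched day, by the test of that difference itself over shared sites. The MidK1 share exceeded that of LowK by 39.8 points at day 35, by 38.5 points at day 52 and by 37.4 points at day 56 (Fisher's exact test, adjusted p = 1.83e-142, 1.04e-187 and 6.35e-126, with 1 library per course and day). Every shared site was higher in MidK1 at each day.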

How the results depend on the processing

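The 3 settings on exons, rows naming 1 gene and base quality removed no Tfe3 site from a comparison and left all 75 values as they were, so they test nothing here. Of the 185 values under the other settings, 178 kept their direction and their side of the call of 20 points with its adjusted p. Some of the 185 repeat the main value and add no check. Leaving out the sites at 25% variant or less changed no pair among MEF1, LowK and MidK1 libraries. In pairs with MidK1 day 35 the common sites were the main sites. The adjusted p alone was under 0.05 in the main result of 155 of the 185 values and no longer so in 13, which were 8 at the 1 site with most reads, 3 with sites at least 200 bases apart and 2 over all listed sites. The first 2 of these settings sum fewer reads. MidK2 day 29 minus MEF2 lost its call at 15.7 points over all listed sites, at 19.8 points with sites at least 200 bases apart and at 19.9 points without the sites at 25% variant or less, an alternative chosen after seeing the data. MidK1 day 52 minus day 35 turned to -10.2 points at the 1 site covered by most reads and to -1.65 points with sites at least 200 bases apart. MEF2 minus MEF1 turned to 8.09 points over all listed sites, where 3 sites at 25% variant or less enter MEF2 alone. MidK2 day 36 minus MidK1 day 35 passed the limit at -20.4 points when only the 1 site covered by most reads was used. With the day as replicate block, MidK1 minus LowK was 36.3 points (exact sign-flip p = 0.25, the smallest 3 pairs allow), and leaving out each day gave 34.6 to 38.4 points. Reprogrammed minus MEF was 16.2 points without MEF1 and 24.3 points without MEF2. A minimum of 50 reads could not be run against MEF1, which has no such Tfe3 site. With 1 library per course and day, no result has a check across cultures.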
